A study of Homo sapiens with 414 samples.

Results

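Selective autophagy delivers chosen cargo to the lysosome, and the 9 genes described here encode proteins at the step where cargo meets the growing autophagosome. Of the 36135 genes in the count table, 5 encode cargo receptors (SQSTM1, OPTN, NBR1, CALCOCO2 and TAX1BP1) and 4 encode LC3 family proteins (MAP1LC3B, GABARAP, GABARAPL1 and GABARAPL2). The genes were chosen by name, on their function and with values of the same knockdown and control cells in view, so their levels and differences are given as a description, with no p-value, and nothing is read from how many of them pass a threshold. A cargo receptor binds ubiquitin or another tag on damaged mitochondria, protein aggregates or bacteria, and binds at the same time a lipid-linked LC3 family protein on the autophagosome membrane. The receptor is then degraded with its cargo, so the amounts of protein and of mRNA can part ways, and the counts here are of mRNA alone. Several receptors also act in signalling: SQSTM1 holds KEAP1, the brake on the antioxidant factor NRF2, and OPTN and TAX1BP1 bind ubiquitin chains made during TNF signalling and limit NF-kB activation.

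The cells were LNCaP, an androgen-responsive epithelial line from a human prostate carcinoma. Knockdown cells received an siRNA from IDT against SULT2B1, the gene of a sulfotransferase that adds sulfate to cholesterol and related sterols, and control cells received a non-targeting siRNA from Dharmacon; harvest was 48 h after transfection. Both arms were captured singly on Fluidigm C1 plates in 3 batches, sites without exactly 1 live cell were excluded under the microscope, and 401 of the 414 samples were used: 66, 65 and 61 knockdown cells against 76, 66 and 67 control cells in batches 1, 2 and 3. Adding up the reads of all cells that share an arm and a batch gave 6 libraries, and levels are given as CPM, a gene's reads scaled to a library's total. The siRNAs differed in supplier as well as in target, so their effects cannot be told apart. Well names recur between the arms of a batch, so the arms were on separate plates, and plate and siRNA cannot be told apart either. Nothing in the labels says that batches came from separate cultures. In a library, fewer cells with a transcript and less of it per cell cannot be told apart, and single-cell values are given for that reason.

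The libraries held 71630108 to 84359044 reads in the knockdown arm and 73256509 to 79393642 in the control arm, with a median of 1150826 reads per cell. SULT2B1 itself had 13, 21 and 0 reads in the knockdown libraries and 152, 109 and 332 reads in the control libraries, a log2 fold change of -4.13 (SE 1.43, edgeR adjusted p 0.268), which missed the threshold of 0.05 at these low counts. All 9 luminal prostate markers passed the filter on low counts, and 2 of them, KLK3 and KLK2, were called lower in the knockdown libraries, while most markers of other cell types were at or near 0. The blood marker PTPRC and the basal markers KRT5, KRT14 and TP63 reached at most 0.0234, 0.0410, 0.932 and 0.612 CPM in any library, the fibroblast marker COL1A1 had 2.09 to 4.25 CPM in knockdown and 1.33 to 3.67 CPM in control libraries, and the endothelial marker VWF had 3.79 to 4.67 CPM in knockdown and 0.957 to 11.2 CPM in control libraries. Cells with more than 20% mitochondrial reads numbered 6, 0 and 2 in the knockdown libraries and 21, 8 and 6 in the control libraries, and they moved several values below, which are then given without them too.

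The sequence around a gene's start is shown for SQSTM1, OPTN and MAP1LC3B, the 3 members with the largest log2 differences among those that were higher in every knockdown library than in every control library. Each window runs from 250 bases before to 50 after a RefSeq start (GRCh38.p14), 5′ to 3′ on the plus strand, which is the strand of all 3 genes: chr5:179820655-179820954, chr10:13099832-13100131 and chr16:87392086-87392385. Where a gene has several RefSeq starts, the one nearest to the start of its principal GENCODE transcript was taken. The RefSeq starts used lie 146 bases (SQSTM1), 479 bases (OPTN) and 536 bases (MAP1LC3B) from that GENCODE start, so the OPTN and MAP1LC3B windows do not reach it, and distances below are from the RefSeq start. Capitals mark matches to the motifs named after the sequences, and the SQSTM1 window has none.
SQSTM1: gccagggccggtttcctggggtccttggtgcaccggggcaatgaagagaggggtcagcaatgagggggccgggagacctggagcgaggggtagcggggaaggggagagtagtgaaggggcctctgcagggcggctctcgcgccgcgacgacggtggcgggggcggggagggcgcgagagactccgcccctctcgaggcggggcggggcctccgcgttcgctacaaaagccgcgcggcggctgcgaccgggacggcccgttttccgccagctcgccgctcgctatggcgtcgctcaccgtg
OPTN: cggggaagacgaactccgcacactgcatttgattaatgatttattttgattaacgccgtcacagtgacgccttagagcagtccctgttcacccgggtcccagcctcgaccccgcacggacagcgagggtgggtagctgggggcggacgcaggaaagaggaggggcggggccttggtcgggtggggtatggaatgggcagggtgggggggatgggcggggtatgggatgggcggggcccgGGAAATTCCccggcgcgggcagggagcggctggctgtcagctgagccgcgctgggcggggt
MAP1LC3B: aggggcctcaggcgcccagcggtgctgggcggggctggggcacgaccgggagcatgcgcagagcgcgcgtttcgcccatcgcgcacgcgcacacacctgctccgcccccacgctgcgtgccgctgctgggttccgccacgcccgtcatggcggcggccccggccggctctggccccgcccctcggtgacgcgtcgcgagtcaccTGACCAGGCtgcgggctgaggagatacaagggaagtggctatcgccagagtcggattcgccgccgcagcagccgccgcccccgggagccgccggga
A total of 6 motifs was searched on both strands. In the OPTN window a kappaB-like motif (GGNNTTTCC, the binding site of NF-kB dimers) matched on the minus strand, where the plus strand reads GGAAATTCC, 11 bases before the start, and this motif is in 6.26% of 35116 RefSeq promoter windows of the same length. In the MAP1LC3B window the core of the antioxidant response element (TGACNNNGC) matched as TGACCAGGC, 46 bases before the start, and this core is in 13.3% of the windows. The other motifs were the interferon element core GAAANNGAA (8.11% of windows), the E-box CACGTG bound by TFEB (7.26%), the AP-1 site TGANTCA (7.71%) and the ATF4 element TGATGNAAT (0.991%). Over all 9 windows there were 2 further matches: GAAAAGGAA in NBR1, an interferon element core 11 bases before the start, and GCCCGGTCA in CALCOCO2, an antioxidant core on the minus strand 129 bases before the start. No matches overlapped. A match is a run of letters and not a measured site.

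Among the receptors, SQSTM1 and OPTN were higher in every knockdown library than in every control library, and NBR1 and CALCOCO2 were not. SQSTM1 (p62), the receptor of ubiquitin-tagged aggregates, lies on chromosome 5 at 179806398 to 179838078 (GENCODE 29, GRCh38). It had 108.8, 99.25 and 100.4 CPM in the knockdown libraries of batches 1, 2 and 3, against 55.31, 35.25 and 43.26 CPM in the control libraries. The lowest knockdown library stood well above the highest control library, and the knockdown libraries lay closer together than the control libraries. The mean was 102.8 ± 5.21 CPM in knockdown and 44.61 ± 10.1 CPM in control libraries (SD, n = 3 each), a log2 fold change of 1.21 (SE 0.192) or 2.31-fold. The difference of log2(CPM + 1) was 0.96, 1.47 and 1.20 within batches 1, 2 and 3.

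OPTN, optineurin, a receptor of damaged mitochondria and bacteria whose hold on LC3 is strengthened when the kinase TBK1 phosphorylates it, lies on chromosome 10 at 13099449 to 13138308. It had 22.70, 26.32 and 16.15 CPM in the knockdown libraries, against 3.742, 3.296 and 3.581 CPM in the control libraries. All 3 knockdown libraries were above all 3 control libraries, and here the control libraries lay closer together. The log2 fold change was 2.62 (SE 0.305), or 6.13-fold, the largest of the 9 genes, and the difference of log2(CPM + 1) was 2.32, 2.67 and 1.90 within the batches. The close control values hide an uneven source: in control batch 1 a single cell held 71.27% of the OPTN reads, and 31.2% of that cell's reads were mitochondrial. Without it that library has 1.00 CPM of OPTN (unscaled), and without all cells over 20% mitochondrial reads the log2 fold change was 3.05.

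NBR1, a receptor that cooperates with SQSTM1 on aggregates, had 124.7, 72.38 and 102.8 CPM in the knockdown libraries, against 74.85, 73.61 and 90.17 CPM in the control libraries. The groups overlapped, because the knockdown library of batch 2 was the lowest of the 6. Its log2 fold change was 0.33 (SE 0.215). CALCOCO2 (NDP52), a receptor of bacteria and damaged mitochondria, had 137.0, 140.3 and 150.2 CPM in the knockdown libraries, against 157.0, 156.4 and 134.3 CPM in the control libraries. The groups overlapped here too, with the knockdown library lower in batches 1 and 2 and higher in batch 3, and the log2 fold change of CALCOCO2 was -0.07 (SE 0.119). TAX1BP1, a relative of CALCOCO2 that also takes part in removing aggregates, had 324.2, 344.1 and 339.8 CPM in the knockdown libraries, against 284.9, 275.0 and 274.4 CPM in the control libraries. Its groups did not overlap, but the difference was small, with a log2 fold change of 0.27 (SE 0.0926), or 1.21-fold.

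In the LC3 family, MAP1LC3B and GABARAP were higher in every knockdown library, while GABARAPL1 and GABARAPL2 overlapped between the arms. MAP1LC3B encodes LC3B, the protein most used to mark autophagosomes, and lies on chromosome 16 at 87383995 to 87404779. It had 75.32, 73.58 and 72.59 CPM in the knockdown libraries, against 44.27, 28.29 and 44.08 CPM in the control libraries. The knockdown libraries were nearly equal, and the control library of batch 2 was the lowest. The log2 fold change of MAP1LC3B was 0.93 (SE 0.208), or 1.90-fold. A near copy on another chromosome, MAP1LC3B2, shares 373 of 375 coding bases (99.47%), so reads of the coding part could be split or lost between them; MAP1LC3B2 held 2.46, 4.63 and 1.95 CPM in the knockdown libraries and 0.871, 2.46 and 2.98 CPM in the control libraries, far less than MAP1LC3B in each.

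GABARAP, which acts late in autophagosome formation and in fusion with the lysosome, had 234.1, 249.7 and 222.3 CPM in the knockdown libraries, against 158.4, 154.5 and 174.9 CPM in the control libraries. The groups did not overlap, and the log2 fold change was 0.53 (SE 0.11), or 1.45-fold. GABARAPL1, the closest relative of GABARAP in the set with 76.64% identical coding bases, had 14.73, 15.95 and 11.77 CPM in the knockdown libraries, against 13, 6.414 and 5.732 CPM in the control libraries. The control library of batch 1 reached into the knockdown range, and in it a single cell with 52.1% mitochondrial reads held 51.2% of the GABARAPL1 reads. The log2 fold change of GABARAPL1 was 0.76 (SE 0.388) with all cells, 1.21 without the control library of batch 1 and 1.45 without cells over 20% mitochondrial reads. GABARAPL2 (GATE-16), a member first studied in transport within the Golgi, had 278.1, 282.2 and 259.0 CPM in the knockdown libraries, against 241.7, 241.4 and 293.2 CPM in the control libraries. The control library of batch 3 was the highest of all, and the log2 fold change was 0.08 (SE 0.117).

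**Figure D1:**
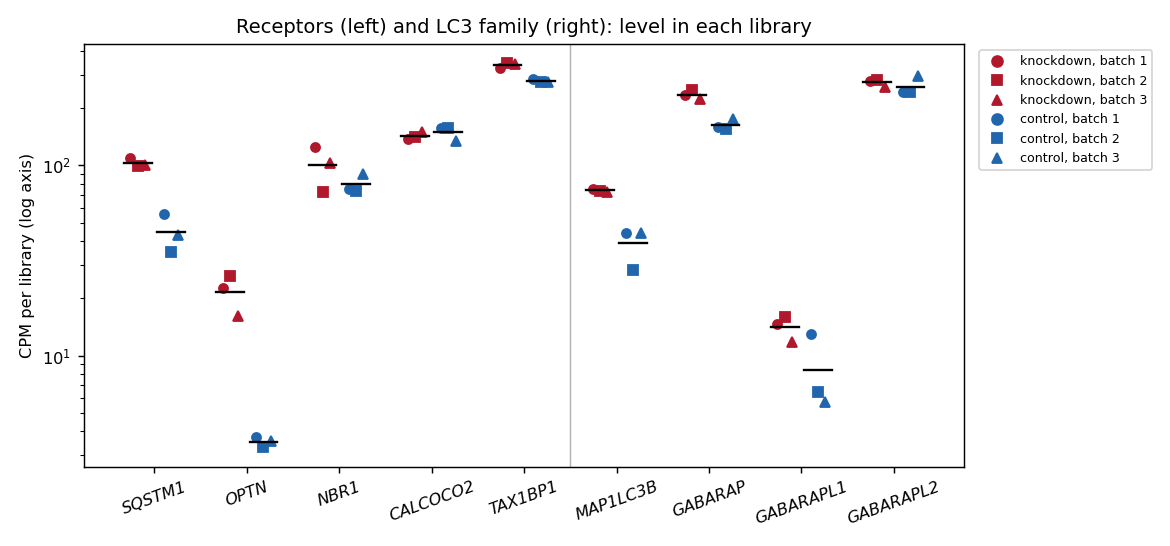
Level of each of the 9 genes in the 6 libraries, in CPM on a log axis, with knockdown libraries (red) left of control libraries (blue), batches as symbols and the mean of 3 libraries as a black line. OPTN and SQSTM1 are set apart between the arms, from 16.15 against at most 3.742 CPM for OPTN, while CALCOCO2, NBR1, GABARAPL1 and GABARAPL2 overlap.

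All 9 genes passed the filter on low counts. In the edgeR quasi-likelihood fit, SQSTM1 and OPTN were the 2 members past an adjusted p of 0.05, both higher in the knockdown libraries; over all 20326 genes tested, 0.777% passed in either direction and 0.394% passed as higher. Since the genes were chosen with this contrast in view, these calls are no test of the members, and nothing is read from that count. It also moved with the fit. With DESeq2, which called 8.83% of the genes it tested, 5 members passed (SQSTM1, OPTN, TAX1BP1, MAP1LC3B and GABARAP). With batch as a replicate block, which called 0.187%, none of the 9 passed. Without any single library, which left 46 to 69 genes called in all, at most 1 member passed. That was OPTN without the knockdown library of batch 3 and SQSTM1 without the control library of batch 1. None passed without any of the other 4 libraries. Without cells over 20% mitochondrial reads, where 198 genes were called in all, OPTN alone passed.

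By values alone, 5 of the 9 genes had every knockdown library above every control library (OPTN, SQSTM1, MAP1LC3B, GABARAP and TAX1BP1), as did 10.5% of all genes tested. GABARAPL1 joins them when the arms are set side by side within each batch, which makes 6 of 9 higher in all 3 batches, as were 19.2% of all genes tested. The median log2 fold change of the 9 genes was 0.53, beside 0.006 over all genes tested. No member was below the control range in every knockdown library.

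**Figure D2:**
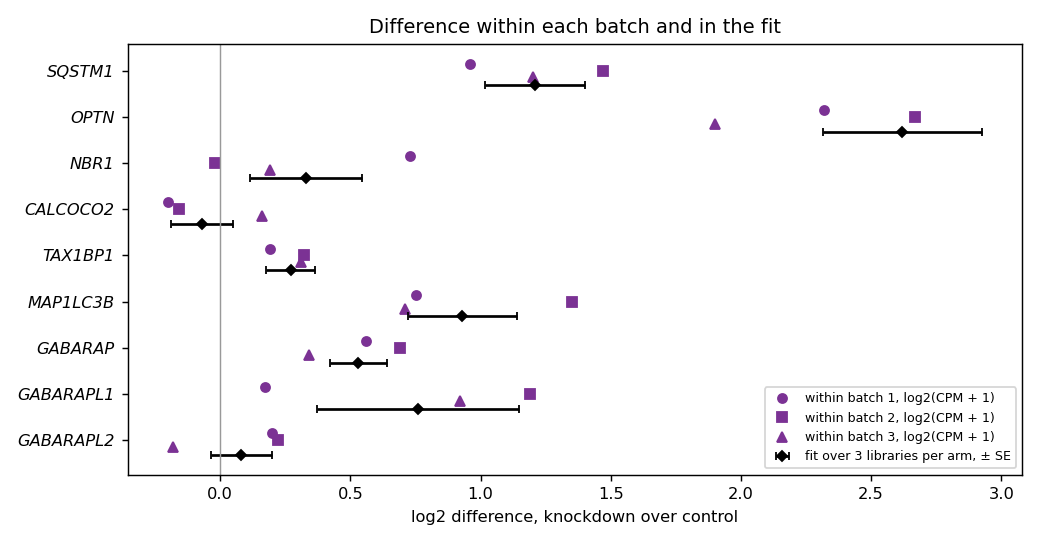
Knockdown over control difference of each gene on a log2 scale: coloured symbols are the differences of log2(CPM + 1) within batches 1 to 3 and black diamonds are the fitted log2 fold changes over 3 libraries per arm, with bars of 1 SE. OPTN lies farthest from 0 in each batch (2.32, 2.67 and 1.90), and NBR1, CALCOCO2 and GABARAPL2 have batches on both sides of 0.

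Per kilobase of exon, which allows levels to be compared between genes, the 9 genes spanned a wide range. In the knockdown libraries the order from high to low was GABARAP (103.9 ± 6.07 CPM per kb), GABARAPL2 (90.02 ± 4.08), TAX1BP1 (36.7 ± 1.15), CALCOCO2 (17.1 ± 0.822), MAP1LC3B (13.9 ± 0.263), SQSTM1 (13.4 ± 0.683), NBR1 (11.9 ± 3.12), OPTN (4.23 ± 1.00) and GABARAPL1 (3.46 ± 0.526; SD, n = 3 each). Among neighbours in that order, MAP1LC3B with SQSTM1, SQSTM1 with NBR1, and OPTN with GABARAPL1 had overlapping ranges. In the control libraries the order was GABARAPL2 (85.3 ± 9.81 CPM per kb), GABARAP (71.8 ± 4.79), TAX1BP1 (30.3 ± 0.642), CALCOCO2 (17.9 ± 1.55), NBR1 (9.46 ± 1.10), MAP1LC3B (7.32 ± 1.73), SQSTM1 (5.83 ± 1.32), GABARAPL1 (2.05 ± 0.982) and OPTN (0.689 ± 0.0441), and only MAP1LC3B and SQSTM1 overlapped. OPTN was thus the scarcest of the 9 transcripts in control libraries and not in knockdown libraries. Lengths are those of all annotated exons merged, and a gene that uses few of them is placed too low.

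The makeup of each family differed accordingly. Of the summed CPM per kb of the 5 receptors, OPTN made up 5.09% ± 1.28 in knockdown and 1.07% ± 0.0441 in control libraries, and SQSTM1 made up 16.1% ± 0.498 in knockdown and 9.04% ± 1.74 in control libraries (SD, n = 3 each). CALCOCO2, whose level was nearly the same in both arms, made up 20.5% ± 1.16 of the receptor sum in knockdown and 27.9% ± 2.20 in control libraries. TAX1BP1 was the most abundant receptor in all 6 libraries, at 41.5% to 46.3% of the sum in knockdown and 46.5% to 47.8% in control libraries. In the LC3 family GABARAP and GABARAPL2 changed places: GABARAP made up 49.2% ± 0.662 in knockdown and 43.2% ± 1.03 in control libraries, and GABARAPL2 made up 42.6% ± 0.493 in knockdown and 51.2% ± 1.61 in control libraries. MAP1LC3B, although the usual marker, was 6.27% to 6.83% of the LC3 family sum in knockdown and 3.44% to 5.17% in control libraries.

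Single cells showed how these differences were spread. OPTN had at least 1 read in 41 of 66, 47 of 65 and 29 of 61 knockdown cells, against 10 of 76, 13 of 66 and 13 of 67 control cells. The exact binomial intervals (Clopper-Pearson, 95%) of the shares did not meet, the lowest knockdown interval starting at 34.6% and the highest control interval ending at 31.3%. These intervals cover counting error only. The mean share was 60.7% ± 12.4 in knockdown and 17.4% ± 3.69 in control libraries (SD, n = 3 each), and with each cell thinned to 100000 reads it was 43.0% ± 13.6 in knockdown and 10.7% ± 4.18 in control libraries. Among cells with a read, the mean OPTN level was 37.3, 44.3 and 35.2 CPM in knockdown and 35.4, 15.8 and 20.3 CPM in control libraries, so the knockdown library of batch 3 lay just below the control library of batch 1. That control value is the mean of 10 cells. A single cell with 31.2% mitochondrial reads held 71.27% of the OPTN reads of that library. The level without that cell is not given here, so the near overlap in level depends on it. With all cells, the arms were farther apart in the share of cells with a read than in the level of those cells.

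SQSTM1 was detected in nearly every cell of both arms, in 98.5% to 100% of knockdown and 89.5% to 98.5% of control cells per library. Its median level per cell was 87.6, 69.1 and 62.6 CPM in the knockdown libraries and 26.2, 17.4 and 29.2 CPM in the control libraries. The upper end was higher too, with a 90th percentile over cells that was larger in each knockdown library (207.5, 214.9 and 241.6 CPM) than in any control library (103.7, 95.05 and 90.66 CPM). MAP1LC3B was detected in 85.4% ± 0.666 of knockdown and 71.2% ± 3.90 of control cells (SD, n = 3 libraries each), and its median per cell was 44.6, 33.1 and 24.3 CPM in knockdown and 5.47, 4.22 and 16.2 CPM in control libraries. GABARAPL1, like OPTN, had no read in many cells of both arms. It had a read in 35 of 66, 34 of 65 and 27 of 61 knockdown cells, against 31 of 76, 16 of 66 and 26 of 67 control cells. The shares per library did not overlap, at 44.3% to 53.0% in knockdown and 24.2% to 40.8% in control libraries, but their binomial intervals did.

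TAX1BP1 had a read in every one of the 401 cells, and GABARAP in 97.4% to 100% of the cells of a library. The median GABARAP level per cell was 233.5, 242.5 and 228.3 CPM in the knockdown libraries and 129.3, 138.9 and 152.8 CPM in the control libraries, which did not overlap. GABARAPL2 medians were 254.0, 247.2 and 263.3 CPM in knockdown and 199.9, 216.0 and 256.6 CPM in control libraries, which overlapped. NBR1 was detected in 89.2% to 91.8% of knockdown and 86.4% to 91.0% of control cells per library, and CALCOCO2 in 87.9% to 96.7% of knockdown and 89.5% to 92.5% of control cells.

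**Figure D3:**
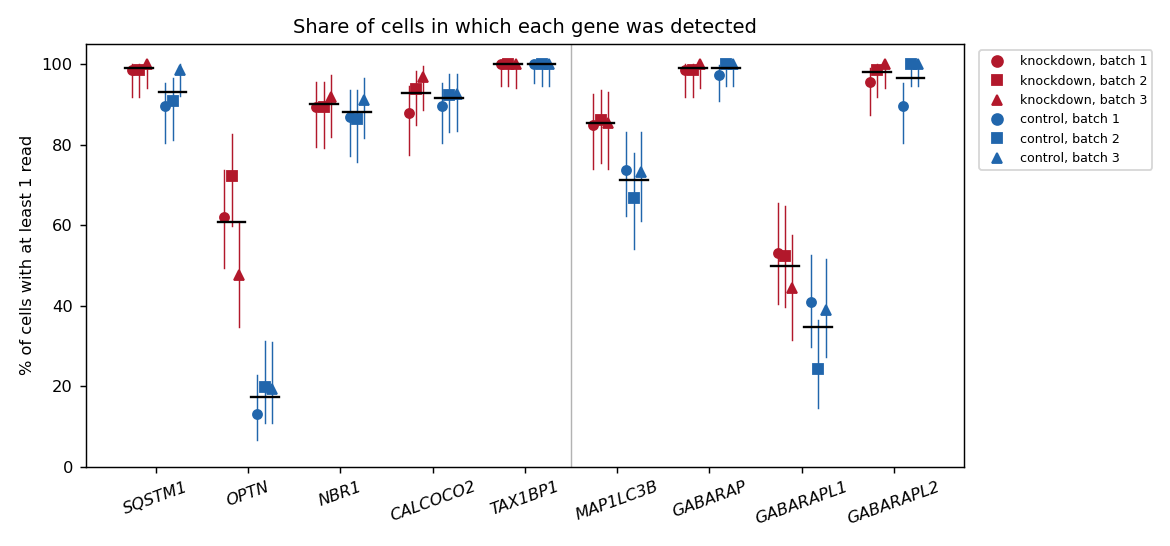
Share of cells with at least 1 read of each gene per library, in percent from 0, with exact 95% binomial intervals as vertical lines, knockdown (red) left of control (blue) and the mean of 3 libraries in black. OPTN is the gene whose intervals stay apart (lowest bound 34.6% in knockdown, highest bound 31.3% in control), and 6 of the genes are detected in more than 85% of cells in every library.

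The other members lie on chromosome 17 (NBR1 at 43170481 to 43211689, CALCOCO2 at 48830988 to 48866522 and GABARAP at 7240014 to 7242770), chromosome 7 (TAX1BP1 at 27739331 to 27844564), chromosome 12 (GABARAPL1 at 10212458 to 10223130) and chromosome 16 (GABARAPL2 at 75566351 to 75577881). Overlapping genes are a limit of these levels, since the strand setting of the counting is not given in the sources used here. SQSTM1 shares positions with MGAT4B and MRNIP on the other strand, which held 2.17 to 3.56 and 7.88 to 21.6 CPM over the 6 libraries, below SQSTM1 in each. OPTN overlaps CCDC3, at most 0.0410 CPM, and the pseudogene SNRPGP5, at most 1.88 CPM. MAP1LC3B overlaps FBXO31, at 2.86 to 10.1 CPM, and TAX1BP1 overlaps JAZF1, at 0.0137 to 13.1 CPM. GABARAP overlaps AC120057.2, a protein-coding gene on the same strand, so no strand setting would separate their shared reads. The level of AC120057.2 is not given here.

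Correlations over the cells of a library describe which members went together from cell to cell; cells of a library share plate and sequencing, the points differ in depth, and counts are sparse. Among the 36 pairs of members the Spearman rho averaged over the 6 libraries ran from -0.0238 (CALCOCO2 with GABARAP) to 0.298 (GABARAP with GABARAPL2), with a median of 0.107. In 10 of the 36 pairs rho was positive in all 6 libraries. SQSTM1 and OPTN, the receptors with the largest differences between the arms, had a mean rho of 0.187. Both GABARAP and GABARAPL2 also correlated with the reads of a cell in the control libraries, with a mean rho of 0.254 and 0.273, which were 0.149 and 0.0953 without cells over 20% mitochondrial reads.

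The 3 programs that are known to include members or their partners were set beside them were interferon response genes, KEAP1 with NRF2 and its targets, and the integrated stress response. OPTN correlated with the mean of the interferon genes in all 6 libraries, with a rho of 0.149, 0.416 and 0.296 over the knockdown cells of batches 1, 2 and 3, and 0.264, 0.166 and 0.212 over the control cells. OPTN had a read in only 10 of 76, 13 of 66 and 13 of 67 control cells, so most control cells tie at 0 for OPTN. The mean over the 6 libraries was 0.250. Without cells over 20% mitochondrial reads it was 0.215 and rho was still above 0 in each library, at 0.0372 in the lowest, knockdown batch 1. GABARAPL1 had a mean rho with the interferon genes of 0.249 over knockdown and 0.0731 over control libraries, beside 0.287 and 0.214 for OPTN. Over all 6 libraries the mean was 0.161 for GABARAPL1, 0.147 for GABARAPL2, 0.133 for SQSTM1 and 0.13 for TAX1BP1. The remaining members had 0.0266 to 0.0933. SQSTM1 had a mean rho with KEAP1, NRF2 and NRF2 targets of 0.32 over knockdown and 0.100 over control libraries, and with the integrated stress response of 0.312 over knockdown and 0.0728 over control libraries. Without cells over 20% mitochondrial reads the SQSTM1 means were 0.267 over knockdown and -0.0144 over control libraries with the NRF2 list, and 0.271 over knockdown and -0.0377 over control libraries with the stress list. MAP1LC3B had a mean rho with the NRF2 list of 0.338 over knockdown and 0.0964 over control libraries, and with the stress list of 0.33 over knockdown and 0.156 over control libraries. Without those cells they were 0.287 over knockdown and -0.0318 over control libraries with the NRF2 list, and 0.298 over knockdown and 0.0539 over control libraries with the stress list. These means hide a spread: for SQSTM1 with the stress list the knockdown libraries gave 0.502, 0.145 and 0.291, and the same cells had a rho of SQSTM1 with the mitochondrial share of -0.338, 0.123 and -0.179. CALCOCO2, NBR1 and TAX1BP1 went with both lists about as much as SQSTM1 and MAP1LC3B did. Their mean over 6 libraries was 0.268, 0.237 and 0.199 with the NRF2 list, beside 0.21 and 0.217. It was 0.25, 0.182 and 0.242 with the stress list, beside 0.193 and 0.243. Other members were lower, at 0.0157 to 0.19 with the first list and 0.0125 to 0.112 with the second. Without cells over 20% mitochondrial reads those receptors had 0.243, 0.115 and 0.123 with the NRF2 list, beside 0.127 and 0.128. Whether the rho differs between the arms was not tested.

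**Figure D4:**
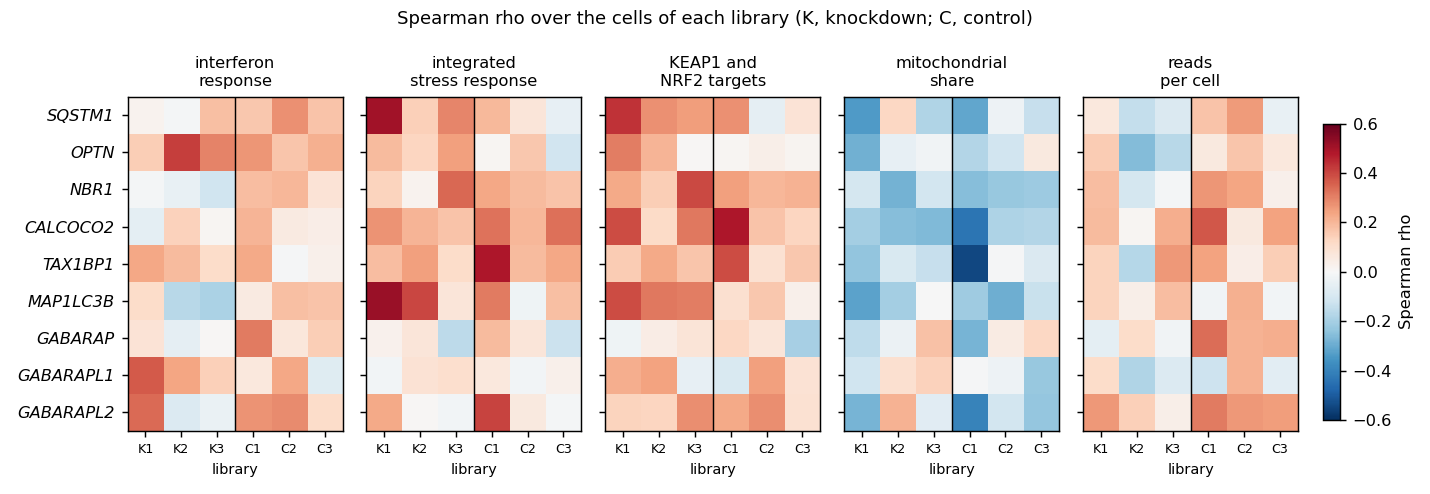
Spearman rho over all cells of each library (colour, from -0.6 to 0.6) between each gene's log2(CPM + 1) and 5 measures of the same cells, with knockdown libraries (K1 to K3) left of control libraries (C1 to C3) in each panel. OPTN with the interferon genes is positive in all 6 libraries (0.149 to 0.416). Each of the 5 receptors, MAP1LC3B and GABARAPL2 are negative with the mitochondrial share in at least 5 of 6 libraries. Without cells over 20% mitochondrial reads (not shown) that holds for OPTN, CALCOCO2 and TAX1BP1 alone. Mitochondrial reads are part of the total that CPM is scaled to, so a negative rho is partly built in.

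Of 7741 genes with a read in at least 50% of the cells, those most like each member were found by the mean rho over the 6 libraries. For OPTN they were NCOA7 (0.290), the histone gene H2BC5 (0.268) and STAT2 (0.253), a transcription factor of interferon signalling. For SQSTM1 they were H2BC12 (0.309), the ferritin heavy chain pseudogene FTH1P11 (0.308) and H2BC5 (0.302). For MAP1LC3B they were FTH1 (0.335), its pseudogene FTH1P7 (0.302) and RPS2P5 (0.301), and for GABARAP they were the ferritin light chain FTL (0.525), its pseudogene FTLP3 (0.499) and RPS18P5 (0.449). Pseudogenes such as these share reads with their parent genes, so they are not separate observations. GABARAPL2 was most like MIEN1 (0.350), PRDX2 (0.342) and APRT (0.340), GABARAPL1 most like SLK (0.257), SCAMP1-AS1 (0.245) and IRF2 (0.242), NBR1 most like ATP6V1A (0.285), RAB6A (0.276) and ERCC1 (0.273), CALCOCO2 most like PSMC4 (0.269), SMIM15 (0.269) and RAB18 (0.261), and TAX1BP1 most like PSAT1 (0.253), RBM47 (0.249) and AEBP2 (0.245).

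The rest of the autophagy pathway served as the surroundings of the 9 genes. Of 104 other autophagy genes with a row of counts, 103 were tested, and 1 passed as lower and 0 as higher in the knockdown libraries in edgeR's quasi-likelihood test, 0.971% beside 0.777% of all genes. At an unadjusted p under 0.05 there were 18 of the 103 (17.5%, beside 13.5% of all genes tested), and DESeq2 called 10, beside 8.83% of all genes it tested. Their median log2 fold change was 0.12, with 67 of 103 above 0. The gene that passed was RTN3, a receptor for turnover of the tubular endoplasmic reticulum, with 116.3, 108.9 and 101.7 CPM in the knockdown libraries, against 223.3, 172.4 and 201.9 CPM in the control libraries. All 3 knockdown libraries were below all 3 control libraries, a log2 fold change of -0.87 (SE 0.135, edgeR adjusted p 0.0422). RTN3 lost its call with batch as a block and without any single one of the 6 libraries, at log2 fold changes between -0.97 and -0.79.

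Calls list by list are those of the edgeR fit, and the 10 calls of DESeq2 are not split by list here. Of the 19 selective receptors outside the 9 genes, the median log2 fold change was 0.05. The mitophagy receptors BNIP3L and BNIP3 were at -0.46 (SE 0.221) and -0.50 (SE 0.282), and the reticulum receptor ATL3 was at -0.50 (SE 0.0999), none past the threshold. Other LC3 family genes were scarce: MAP1LC3A had 0.175, 0.324 and 0.595 CPM in the knockdown libraries against 0.0136, 0.0273 and 0.103 CPM in the control libraries, from 14, 24 and 51 knockdown and 1, 2 and 8 control reads, and MAP1LC3C was not tested. None of the 11 genes of the LC3 conjugation machinery passed, with a median of 0.05, ATG3, the enzyme that hands LC3 to its lipid, at -0.34 (SE 0.134), ATG12 at -0.72 (SE 0.261) and ATG5 at 0.44 (SE 0.134). None of the 5 initiation complex genes passed (median 0.16), with the kinase ULK1 at 0.38 (SE 0.399), its scaffold RB1CC1 at -0.10 (SE 0.163) and ATG13 at -1.13 (SE 0.282). None of the 8 PI3-kinase complex genes passed (median 0.05), with BECN1 at 0.01 (SE 0.168) and the kinase PIK3C3 at 0.08 (SE 0.206).

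None of the 9 membrane supply genes (median 0.27), the 14 genes of fusion with lysosomes (median 0.03) and the 22 lysosome genes with TFEB (median 0.13) passed. Examples are the scramblases VMP1 at 0.13 (SE 0.146) and TMEM41B at 0.50 (SE 0.188), the fusion proteins VAMP8 at 0.43 (SE 0.161), STX17 at 0.30 (SE 0.156) and RAB7A at -0.51 (SE 0.118), and the lysosomal LAMP2 at 0.23 (SE 0.175) and CTSL at 0.35 (SE 0.156). Among larger differences in the fusion list were YKT6 at 1.40 (SE 0.309) and SNAP29 at -0.97 (SE 0.367). In the lysosome list they included TFE3 at 1.00 (SE 0.294), NEU1 at 0.88 (SE 0.204) and MCOLN1 at -1.29 (SE 1.07). Of the 13 kinases and ubiquitin ligases that act on receptors none passed (median 0.13). IKBKE had the largest difference of the list, a log2 fold change of 2.05 (SE 0.464). It had 12.2, 14.6 and 11.6 CPM in the knockdown libraries, against 4.86, 1.59 and 2.82 CPM in the control libraries. TBK1, the kinase that phosphorylates OPTN and SQSTM1, had 81.7, 147.9 and 154.1 CPM in the knockdown libraries, against 105.6, 116.3 and 144.7 CPM in the control libraries, which overlapped, and CSNK2A1, which also phosphorylates SQSTM1, was at 0.13 (SE 0.142).

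**Figure D5:**
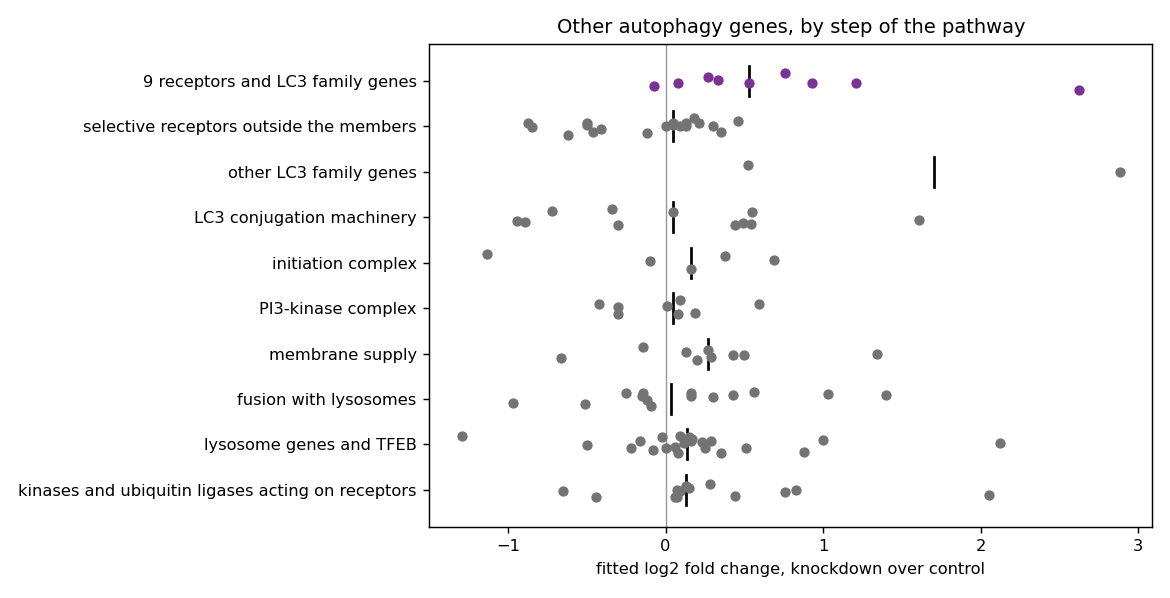
Fitted log2 fold change, knockdown over control, of the 9 genes (top row, purple) and of the tested genes of 9 other autophagy lists (grey), with the median of each row as a black line. The median of the 9 genes is 0.53 and OPTN lies at 2.62; the other lists have medians between 0.03 and 0.27, except the pair of other LC3 family genes, both at 5 CPM or less. The 9 genes were chosen with this contrast in view, so the rows are a description and not a test.

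Of 11 interferon response genes 9 passed as higher in the knockdown libraries (among them IFIT1, IFIT2, RIGI and IFI6), with a median log2 fold change of 5.24. IFIT2 averaged 2024 ± 296.9 CPM in knockdown and 7.09 ± 2.08 CPM in control libraries (SD, n = 3 each), and RIGI, a sensor of double-stranded RNA, averaged 372.3 ± 40.1 CPM in knockdown and 16.4 ± 3.07 CPM in control libraries. The libraries in which OPTN was higher were thus those with more interferon transcripts, whose part in the OPTN difference was not tested. None of the 10 tested genes of the NRF2 list passed (median 0.29), with NQO1 at 0.39 (SE 0.101), TXNRD1 at 0.27 (SE 0.104) and NFE2L2, the NRF2 gene, at -0.07 (SE 0.155). None of the 10 genes of the integrated stress response passed, although all 10 log2 fold changes were above 0 (median 0.43), with ATF4 at 0.28 (SE 0.147), DDIT3 at 0.45 (SE 0.369) and ASNS at 0.12 (SE 0.149). The largest in this list were PPP1R15A at 1.63 (SE 0.324), ATF3 at 1.31 (SE 0.353) and SESN2 at 0.99 (SE 0.349).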

How the data were processed

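Single LNCaP cells of 2 arms and 3 batches were sequenced on an Illumina HiSeq2500. The deposited values are raw read counts per gene and cell, from a protocol with no molecular identifiers, so reads of 1 molecule cannot be counted once. The submitters' processing notes name build GRCh38.p3 and the tools TopHat2 2.1.0, HTSeq 0.6.1, FastQC 0.11.3 and edgeR 3.2.2; their order, the annotation release and the strand setting were not given in the sources used here. In all 13 samples and 4 columns of values were not used (several cells, first runs or no matching column).

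Counts were summed per arm and batch, and fitted with the edgeR 4.0.16 quasi-likelihood test (R 4.3.3, limma 3.58.1): TMM, filterByExpr with a minimum count of 10, robust dispersions, no covariates, Benjamini-Hochberg over 20326 genes, threshold 0.05. Doublets were excluded by the submitters' inspection, per the labels' protocols; no caller was run. The labels' word Batch pairs the libraries; same-numbered deviations correlated at 0.0551, -0.00369 and -0.0019. Alternatives were DESeq2 1.42.0, RLE, no filter, the replicate block, other cell weights and filters, and leaving out each library. Of 36135 identifiers 34891 were named by the gene name table; coordinates are from GENCODE 29, promoters from RefSeq. The edgeR fit was also run on simulated counts. Those were drawn with less spread between libraries than these data have, so that run does not show how the fit performs here.

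The members and lists were chosen with earlier results of these data known. Named are all 9 members, up to 4 genes per list (called first by adjusted p, then by CPM) and the 3 genes most like each member. IKBKE, YKT6, SNAP29, TFE3, NEU1, MCOLN1, PPP1R15A, ATF3 and SESN2 are named too, for the size of their differences. IFIT2 and RIGI stand for the interferon list, and 6 markers, picked after their values were seen, for other cell types. Some genes are not named here.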

Additional observations from a re-analysis of the deposited data

How the results depend on the processing

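The fit called 158 genes; DESeq2 called 1902, no filter on low counts gave 309, the replicate block (batches paired) gave 38, and leaving out each library gave 46 to 69. Of the other autophagy genes 1 was called, against 10 with DESeq2, 0 with the replicate block and 0 to 0 on leaving out each library; of the 3 accompanying lists 9 were called, against 14 with DESeq2, 6 with the replicate block and 7 to 8 on leaving out each library. RTN3 was at -0.86 with the replicate block. The cause of these shifts was not tested, and the leave-one-out fits also had fewer libraries. Over these alternatives the log2 fold change of SQSTM1 ran from 1.06 to 1.38, OPTN from 2.45 to 3.05, NBR1 from 0.14 to 0.51, CALCOCO2 from -0.14 to 0.00, TAX1BP1 from 0.25 to 0.30, MAP1LC3B from 0.74 to 1.02, GABARAP from 0.49 to 0.58, GABARAPL1 from 0.54 to 1.45 and GABARAPL2 from 0.02 to 0.17. Of the recomputed correlations 18 moved by more than their spread over libraries and 144 did not. Detection shares moved in 32 recomputations with at least 5 reads or thinning, which can only lower them, and not in 4. The OPTN level in control libraries rests on 10 to 13 cells each.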
